A study of Mus musculus with 21 samples.

Results

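Stretches of the autosomes that carried histone H3 lysine 9 dimethylation (H3K9me2) in fibro-adipogenic progenitors of the genotype labelled Prdm16, and in none of those labelled WT, are described here. They were chosen by the measured domains themselves. A bin of 1 kb was a member when it lay inside a deposited domain in at least 2 of the 3 Prdm16 libraries and in no domain of the 3 WT libraries, and touching bins were merged. The rule gave 363 regions with a total length of 44.5 Mb, out of 1228 regions and 1076 Mb of autosomal H3K9me2 found in any of the 6 libraries. Presence in Prdm16 and absence in WT are therefore a description of the choice, with no test.

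The Prdm16 cells came from adult Prdm16 Flox/Flox mice that carried a tamoxifen-dependent Cre at the Pdgfra gene on 1 allele (Prdm16Flox/Flox::PdgfrαCre-ERT/+). The WT cells came from mice with the same floxed Prdm16 alleles and no Cre (Prdm16Flox/Flox::Pdgfrα+/+), so that both groups carry the floxed alleles and the controls lack the recombinase. Per the labels, tamoxifen was given for 5 days, cardiotoxin injury followed after 7 days, and cells were isolated 5 days after injury and cultured for 4 to 5 days. Chromatin immunoprecipitation with antibodies to H3K9me2 (3 libraries of each genotype) and to LaminB1 (1 library of each) and RNA sequencing (2 Prdm16 and 3 WT libraries) were used here. The labels do not say whether replicates are separate animals, so that p-values measure only the spread between these libraries.

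H3K9me2 is a repressive mark laid down in mammals mainly by the methyltransferases G9a and GLP. It covers broad, gene-poor domains, many of which lie at the nuclear lamina, the protein mesh under the nuclear envelope to which LaminB1 belongs. Fibro-adipogenic progenitors are the Pdgfra-expressing stromal cells of skeletal muscle that support regeneration and give rise to fibroblasts and adipocytes. Prdm16 is a PR-domain zinc finger protein best known for its part in brown fat fate, and H3K9 methyltransferase activity has been reported for it.

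The regions hold gene promoters of very unlike base composition, and 5 are shown to make this visible. They are those with the most and the fewest CG dinucleotides among the 12 promoters of named genes that start inside a region. Capitals mark each CG. Sequences are from RefSeq (GRCm38.p6), each 300 bases long (250 bases before to 50 after the annotated start).
Prkd1 promoter, chr12:50649200-50649499, minus strand: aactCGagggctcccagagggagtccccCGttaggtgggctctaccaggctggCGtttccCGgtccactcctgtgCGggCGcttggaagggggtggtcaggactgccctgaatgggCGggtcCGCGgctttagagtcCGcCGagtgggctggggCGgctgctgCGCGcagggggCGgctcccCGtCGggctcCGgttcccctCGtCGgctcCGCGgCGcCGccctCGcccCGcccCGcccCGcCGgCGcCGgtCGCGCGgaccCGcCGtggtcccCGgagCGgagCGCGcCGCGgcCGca
Ptbp2 promoter, chr3:119783339-119783638, minus strand: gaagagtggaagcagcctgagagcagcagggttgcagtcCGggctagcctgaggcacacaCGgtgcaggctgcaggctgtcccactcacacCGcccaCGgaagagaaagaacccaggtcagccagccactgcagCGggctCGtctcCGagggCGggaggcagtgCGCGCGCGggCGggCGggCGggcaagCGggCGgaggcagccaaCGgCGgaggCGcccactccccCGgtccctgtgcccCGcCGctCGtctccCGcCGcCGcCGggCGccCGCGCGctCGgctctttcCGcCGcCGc
Fbxl7 promoter, chr15:26895515-26895814, minus strand: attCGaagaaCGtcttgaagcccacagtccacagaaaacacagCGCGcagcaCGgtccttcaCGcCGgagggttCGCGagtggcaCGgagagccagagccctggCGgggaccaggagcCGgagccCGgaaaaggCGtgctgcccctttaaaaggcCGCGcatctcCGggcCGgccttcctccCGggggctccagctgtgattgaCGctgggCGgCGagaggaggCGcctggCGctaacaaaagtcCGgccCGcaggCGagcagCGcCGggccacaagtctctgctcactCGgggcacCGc
Serpina3n promoter, chr12:104406458-104406757, plus strand: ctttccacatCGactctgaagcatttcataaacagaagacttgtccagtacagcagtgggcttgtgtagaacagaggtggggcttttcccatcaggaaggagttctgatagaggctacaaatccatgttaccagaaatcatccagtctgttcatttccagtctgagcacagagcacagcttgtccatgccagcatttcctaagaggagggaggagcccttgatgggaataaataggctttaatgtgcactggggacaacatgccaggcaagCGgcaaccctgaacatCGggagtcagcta
Trim30a promoter, chr7:104465144-104465443, minus strand: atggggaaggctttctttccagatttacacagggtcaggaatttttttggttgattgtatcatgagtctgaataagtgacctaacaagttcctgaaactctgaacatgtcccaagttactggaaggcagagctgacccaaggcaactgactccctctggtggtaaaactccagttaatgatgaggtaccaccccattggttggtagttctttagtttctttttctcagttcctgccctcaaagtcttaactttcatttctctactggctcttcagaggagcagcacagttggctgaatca
The promoters of Prkd1 (protein kinase D1), Ptbp2 (a splicing regulator known from neurons) and Fbxl7 (a ubiquitin ligase adaptor) held 43, 36 and 31 CG, which makes them CG-rich promoters. Those of Serpina3n (a secreted serine protease inhibitor) and Trim30a (an interferon-inducible TRIM protein of the mouse) held 3 and 0.

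The 6 H3K9me2 libraries differed in how much they covered, and this bears on every value given for the regions. Autosomal coverage was 500.2, 800.4 and 677 Mb in Prdm16 replicates 1, 2 and 3, and 883, 562 and 776 Mb in WT replicates 1, 2 and 3. The groups overlapped, with means of 659 ± 151 Mb in Prdm16 and 740.2 ± 163 Mb in WT (SD, n = 3 each). The difference of -81.1 Mb was within that spread (two-sided exact permutation test, p = 0.6, where 0.1 is the smallest p possible). The least covered library of each genotype contributed least to its own group. Read depth of these libraries is unknown, so no interval is given.

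Most of the member length rested on a single pair of libraries. Prdm16 replicates 2 and 3 covered 92.7% and 93.5% of the 44.5 Mb, and Prdm16 replicate 1 covered 28.0%. Replicates 2 and 3 alone, without replicate 1, accounted for 32.0 Mb (72.0%). All 3 Prdm16 libraries shared 6.31 Mb (14.2%), which formed 76 stretches. Leaving out Prdm16 replicate 2 left 127 regions of 9.58 Mb in all, and leaving out Prdm16 replicate 3 left 140 regions of 9.19 Mb. In either case both remaining Prdm16 libraries were needed, so the length could only shrink.

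Just inside the threshold, 38.2 Mb lay in exactly 2 Prdm16 libraries and no WT library. Just outside it, 69.8 Mb lay in 1 Prdm16 library and no WT library, and 32.1 Mb in 2 Prdm16 libraries and 1 WT library. The mirror-image rule, at least 2 WT libraries and no Prdm16 library, gave 395 regions of 60.2 Mb, more than the members. Those regions also rested on 2 libraries, with WT replicates 1 and 3 covering 98.9% and 94.2% of them and WT replicate 2 covering 13.3%. The same rule applied to each of the other 19 assignments of 3 libraries against the other 3 gave between 5.41 and 157 Mb, with a median of 19.1 Mb. Of these, 6 gave more than the members and 13 gave less, and the highest, 157 Mb, set Prdm16 replicate 2 with WT replicates 1 and 3.

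**Figure D1:**
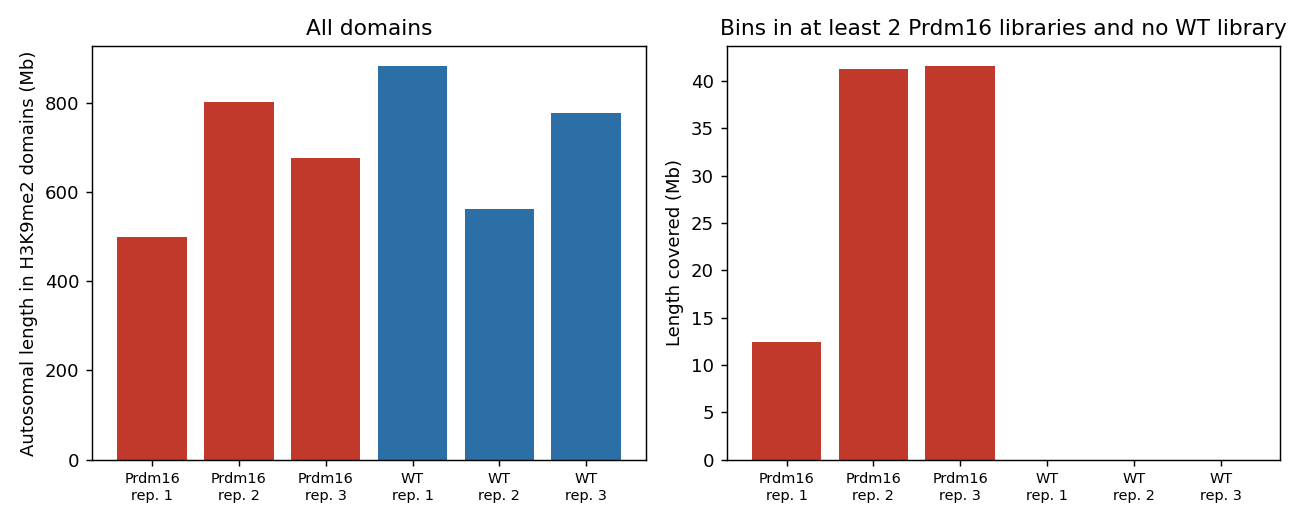
H3K9me2 coverage per library (bars, Mb) for all autosomal domains on the left and for the 44.5 Mb of regions on the right, with Prdm16 libraries in red and WT libraries in blue. Prdm16 replicates 2 and 3 each hold over 41 Mb of the regions and replicate 1 holds 12.5 Mb, and the WT libraries are at 0 by the rule.

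The regions were spread over all 19 autosomes and were mostly short, while their length was concentrated in a minority. The median was 36 kb, with quartiles of 6 and 172.5 kb and a range of 3 to 1701 kb, and 66 regions were a single 3 kb step of the deposited boundaries. The 131 regions of at least 100 kb held 39.3 Mb (88.4%), and the 10 longest held 8.68 Mb (19.5%). By chromosome, the share of the span that was member ranged from 0.473% on chromosome 6 to 3.46% on chromosome 3.

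Most regions adjoined a domain of at least 1 WT library. The rule removes every WT-covered bin, so a Prdm16 domain that overlaps a WT domain is cut exactly at its edge. Such contacts follow from the choice and are a description only. Of the 363, 310 (85.4%) began or ended exactly where a WT domain stopped. At 1 end this held for 277 regions of 23.0 Mb with a median of 15 kb. At both ends it held for 33 regions of 7.75 Mb with a median of 222 kb, which thus filled the whole gap between 2 WT domains. The other 53 regions, 13.8 Mb with a median of 213 kb, touched no WT domain, and 50 of these (13.2 Mb) had none within 30 kb.

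Around the 57 regions of at least 100 kb that touched a WT domain at 1 end, Prdm16 replicates 2 and 3 were covered on both sides of the edge. In the 30 kb outside the edge, 53.0%, 99.3% and 97.2% of positions were covered in Prdm16 replicates 1, 2 and 3, and 68.9%, 46.1% and 44.9% in WT replicates 1, 2 and 3. In the first 30 kb inside, the Prdm16 libraries were at 38.9%, 92.5% and 93.3%. These are descriptions: a WT domain at the edge chose these regions, and the rule set the coverage inside them. No single WT domain edge served all regions, as 155 were touched by WT replicate 1, 141 by WT replicate 2 and 94 by WT replicate 3.

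**Figure D2:**
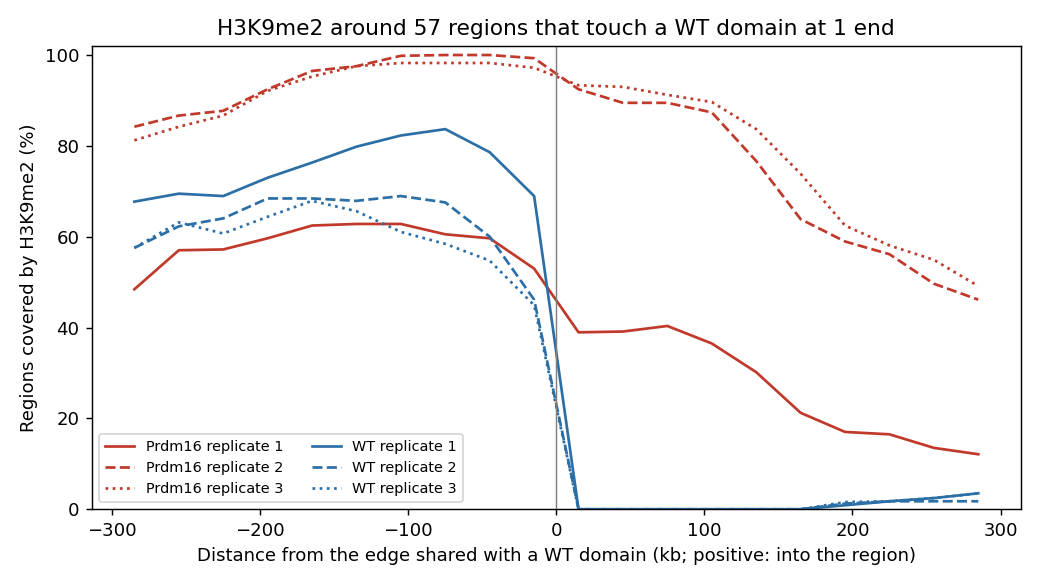
Share of positions covered by H3K9me2 (%) in 30 kb steps around the shared edge of the 57 regions of at least 100 kb that touch a WT domain at 1 end, with positive distances inside the region and 1 line per library. Prdm16 replicates 2 and 3 stay above 90% across the edge into the first 30 kb, and WT libraries drop to 0 there by the rule.

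The longest region, chr1:144864001-146565000 (mm10), ran for 1701 kb and ended where a WT domain began. It overlapped 17% of Brinp3 (a protein expressed mainly in brain) and was otherwise without protein-coding genes. Prdm16 replicates 2 and 3 covered it whole, with the authors' domain scores of 116 and 79.3, and Prdm16 replicate 1 had none of it. The next were chr13:25542001-26820000, of 1278 kb and with Hdgfl1 (an HDGF-like gene) as its protein-coding gene, and chr3:147102001-148122000, of 1020 kb and with none. Both were covered whole in Prdm16 replicates 2 and 3 and not at all in replicate 1. Of the 10 longest regions, 3 had any coverage in Prdm16 replicate 1.

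These 3 were chr18:8328001-9207000 (879 kb, 483 kb of it in replicate 1), chr2:137127001-137880000 (753 kb, 279 kb) and chr7:70983001-71586000 (603 kb, 279 kb), and none of them overlapped a protein-coding gene. The first lay 1332 and 3102 kb from the nearest WT domains and the second 645 and 408 kb from them, so both stood as separate domains. Their highest authors' domain scores were 20.8 and 29.1, below the 116 and 79.3 of the longest region. Among the other long regions, chr1:61770001-62388000 took in 62% of Pard3b (a cell polarity protein), chr2:7119001-7728000 took in 32% of Celf2 (an RNA-binding splicing regulator) and chr3:133650001-134250000 took in 53% of Cxxc4 (a CXXC zinc finger protein that inhibits Wnt signalling). chr4:13089001-13704000 (615 kb) had no protein-coding gene.

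Among the regions away from WT domains, chr13:118530001-119088000 (558 kb) held the whole of Fgf10, a growth factor made by mesenchymal cells. chr13:16881001-17415000 (534 kb) took in 64% of Sugct (a mitochondrial CoA transferase), and chr10:97728001-98211000 (483 kb) held no protein-coding gene. All 3 were covered whole in Prdm16 replicates 2 and 3 and not in replicate 1. The authors' domain scores in replicates 2 and 3 were 12.8 and 20.9 for the Fgf10 region and 18.8 and 20.1 for the Sugct region. They were 27.1 and 25.7 for the chromosome 10 region. Domains that held members had median scores of 27.7 and 26.0 in these libraries. The longest stretches shared by all 3 Prdm16 libraries were chr18:8724001-9207000 (483 kb), chr14:29073001-29448000 (375 kb), chr5:141246001-141606000 (360 kb), chr2:136533001-136872000 (339 kb) and chr3:21465001-21792000 (327 kb). The fourth of these held the whole of Snap25, a SNARE protein of synaptic vesicle fusion, and 97% of Ankef1. The second took in 46% of Cacna2d3 (a calcium channel subunit) and the third 37% of Sdk1 (a synaptic adhesion protein).

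LaminB1 domains, which the rule did not use, covered little of the regions. Of the 44.5 Mb, 0.488% (217 kb, in 6 regions) lay in Prdm16 LaminB1 domains and 1.17% (519 kb, in 16 regions) in WT LaminB1 domains. Over all autosomal bins the shares were 12.4% in the Prdm16 LaminB1 library and 26.3% in the WT library. Bins with H3K9me2 in all 6 libraries were at 20.7% in the Prdm16 library and 54.2% in the WT library. Bins with no H3K9me2 were at 8.58% and 12.4% in the same order of libraries, so the regions also lay below unmarked bins as a whole. Low shares were not limited to the regions: bins in 1 Prdm16 library and no WT library were at 3.03% in the Prdm16 LaminB1 library and 5.98% in the WT one. The mirror-image bins, in WT and no Prdm16 library, were at 35.4% in the Prdm16 library and 84.3% in the WT library. With 1 LaminB1 library per genotype, these differences have no replicate check.

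The low LaminB1 share did not come from a few chromosomes. The regions fell below the whole chromosome's share on 19 of 19 autosomes in both LaminB1 libraries, and they were at 0 on 14 in the Prdm16 library and 9 in the WT library. The highest shares were on chromosome 13, with 3.89% in the Prdm16 library and 8.83% in the WT library. That is largely the Fgf10 region, where 128 kb lay in Prdm16 and 298 kb in WT LaminB1 domains. Stretches in all 3 Prdm16 libraries were at 0.523% in the Prdm16 library and 1.65% in the WT library. The 21.7 Mb within 30 kb of the regions were also low, at 1.78% in the Prdm16 library and 4.83% in the WT library. The unmarked bins among them were at 0.637% in the Prdm16 library and 0.814% in the WT library, the second below the 1.17% of the regions.

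The LaminB1 share of a library's H3K9me2 moved in the same direction as these values. Of all autosomal H3K9me2, 22.7%, 12.6% and 12.7% lay in Prdm16 LaminB1 domains for Prdm16 replicates 1, 2 and 3, and 19.8%, 19.1% and 18.8% for WT replicates 1, 2 and 3. In WT LaminB1 domains the shares were 49.8%, 39.7% and 35.1% for Prdm16 replicates 1, 2 and 3, and 51.0%, 46.8% and 51.5% for WT replicates 1, 2 and 3. The 2 libraries that carry most of the member length were thus the 2 lowest in both, and the part of this in the result was not tested. Without WT replicate 1 in the rule, the share of members was 2.14% in the Prdm16 LaminB1 library and 5.26% in the WT one.

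**Figure D3:**
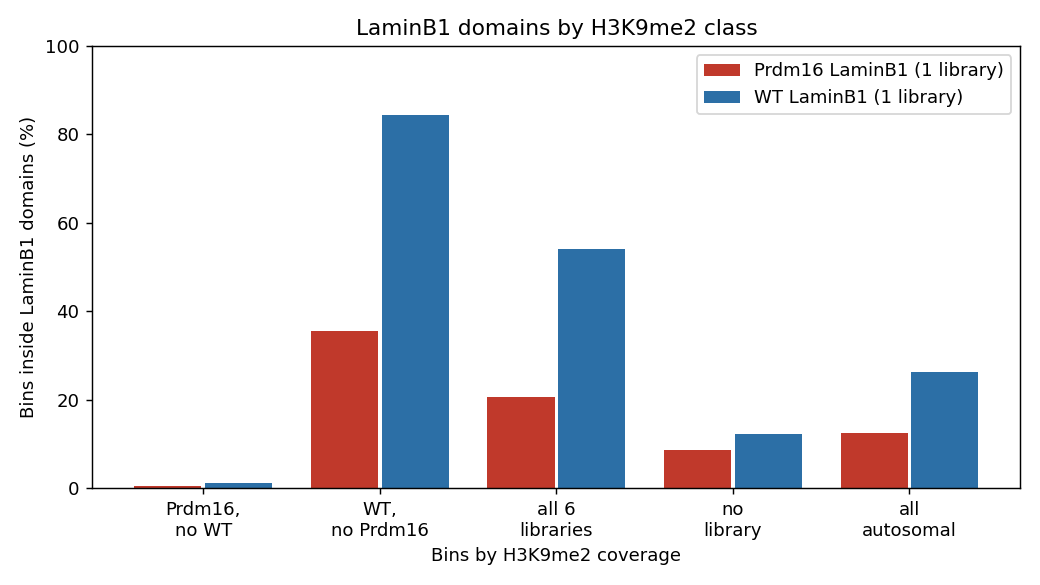
Share of 1 kb bins inside LaminB1 domains (%, bars from 0) in the Prdm16 (red) and WT (blue) LaminB1 libraries, 1 library each, by H3K9me2 class of the bins. The regions, leftmost, are at 0.488% and 1.17%, below each of the other classes drawn.

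The regions were poor in genes, and most genes in them were not protein-coding. With at least 0.5 of the gene body inside, 384 RefSeq genes lay in them, of which 163 were long noncoding RNAs, 120 pseudogenes and 66 protein-coding. The 66 are 0.319% of the 20665 autosomal protein-coding genes. This is a density of 1.48 protein-coding genes per Mb, against 2.17 where all 6 libraries had the mark, 3.39 in the mirror-image bins, 12.7 in bins with no H3K9me2 and 8.40 over the autosomes. The gene count depends on single libraries: it was 13 without Prdm16 replicate 2, 12 without Prdm16 replicate 3, 115 without WT replicate 1 and 122 without WT replicate 2. A count of 175 protein-coding genes (0.847%) overlapped the regions at all.

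By position, the regions that filled a gap between 2 WT domains held 17 protein-coding genes (2.19 per Mb), those that extended a domain at 1 end held 29 (1.26 per Mb) and those apart from WT domains held 20 (1.45 per Mb). Of these, 14, 10 and 11 had enough RNA counts to be tested. Their WT LaminB1 shares were 0.0645%, 0.941% and 2.16% in that order, and all stayed low. The 2.16% came from the Fgf10 region alone, with 298 kb in WT LaminB1 domains.

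The lists of muscle and stromal genes had no gene mostly inside the regions, where the background share of 0.319% gives few or none. No gene of the lists for FAP identity (17 autosomal genes), matrix and fibrosis (38), myogenic regulators and fusion (19), sarcomere (35), adipogenesis (25), chondrogenic and osteogenic fate (16), interferon response (30), H3K9 methylation and lamina (27) or Hox (20) had 0.5 of its body inside. Small overlaps were found for Pdgfra (6.84% of its body), the sarcomere gene Ttn (1.08%), the adipogenic regulator Zfp521 (1.75%) and the chondrogenic factor Sox5 (15.4%). Of 95 cadherins and protocadherins 2 lay inside (Pcdh18 and Cdh11), of 62 serpins 1 (Serpina3n) and of 64 neuronal adhesion and synapse genes 1 (Snap25). Overlap of any size was found for 8 of the 64 genes on the neuronal list, against 0.847% of all autosomal protein-coding genes. The 8 were Snap25, Macrod2, Pcdh7, Dlgap2, Galntl6, Syt1, Pcdh9 and Lsamp. Apart from Snap25, the regions took in between 0.263% (Galntl6) and 26.3% (Syt1) of their bodies, which are 417 to 2197 kb long. The median autosomal protein-coding gene is 17.5 kb long. No share matched for gene length was computed, and the list was chosen with earlier results of these data known, so the 2 shares are not like for like. Of these 64 genes, 22 lay in bins marked in all 6 libraries. No olfactory receptor lay in the regions, out of 1104, with 49 in bins marked in all 6 libraries and 44 in the mirror-image bins. For the lists of 16 to 38 genes the background share of 0.319% gives few or no genes, so their zeros carry little information. The olfactory receptor list is larger, and its 0 was not tested against that share.

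Protein-coding genes in the regions were often transcribed. Of 64 protein-coding genes matched to the deposited counts, 35 (54.7%) passed edgeR's expression filter over the 5 RNA libraries. The shares were 19 of 200 (9.5%) in the mirror-image bins and 65 of 616 (10.6%) in bins marked in all 6 libraries. They were 66.8% in bins with no H3K9me2 and 59.5% over the autosomes. These totals include genes with 0 counts in all 5 libraries. Such genes numbered 8 in the regions, 115 in the mirror-image bins and 266 in bins marked in all 6. Among genes that passed, the median mean level was 6.52 CPM (counts scaled to library size) in the regions, 7.85 in the mirror-image bins, 3.29 in bins marked in all 6 libraries and 32.2 in unmarked bins. So the protein-coding genes passed about as often as autosomal protein-coding genes in general, at lower levels. Without WT replicate 1 in the rule the share of protein-coding genes that passed was 40.7%. Over genes of all types, 44 of 264 (16.7%) passed in the regions, against 36.8% over the autosomes and 45.3% in unmarked bins. For all types the shares were 4.27% in the mirror-image bins and 4.84% in bins marked in all 6 libraries.

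Promoters in the regions showed an intermediate base composition. Of 55 protein-coding promoters whose start lay inside, 14 (25.5%) had at least 15 CG in 300 bases, against 21 of 175 (12%) in the mirror-image bins, 64 of 448 (14.3%) in bins marked in all 6 libraries, 54.3% in unmarked bins and 48.8% over the autosomes. The median was 5 CG in the regions and 2, 3, 16 and 14 in the same order of classes. This count is of CG in these windows, which read the same on both strands, and is a description of sequence only.

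**Figure D4:**
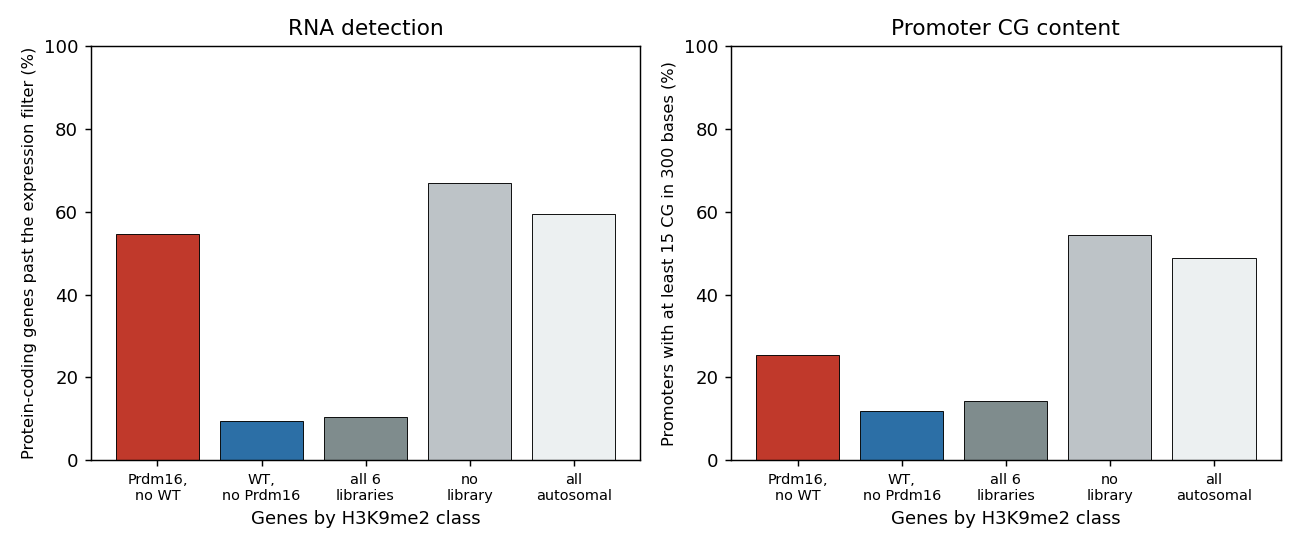
Left, share of protein-coding genes past the expression filter (%); right, share of promoters with at least 15 CG in 300 bases (%), by H3K9me2 class of the gene or its start. Genes in the regions (red, 54.7% and 25.5%) are above those of the mirror-image bins and of bins in all 6 libraries in both panels, and below unmarked bins.

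The RNA libraries held 8448654 and 5839587 counts for Prdm16 replicates 1 and 2, and 10657791, 7053114 and 10284864 for WT replicates 1, 2 and 3. The targeted gene itself did not separate the groups: Prdm16 was at 10.8 and 14.7 CPM of the library total in Prdm16 libraries and at 16.0, 13.3 and 5.74 in WT libraries. The labels do not say which exons are deleted, so a count over the gene is a weak check. Of 8 FAP markers, 5 stood above 100 CPM in all 5 libraries (Pdgfra 491 to 940 CPM, Ly6a 745 to 1684, Cd34 272 to 432, Col1a1 1203 to 2214, Dcn 135 to 724), while Lum was at 8.46 to 96.2, Pi16 at 2.92 to 37.5 and Dpp4 at 0 to 2.40. WT replicate 3 had the lowest Dcn, Lum and Pi16. Of 5 macrophage markers, Adgre1 was at 0 in all 5 libraries and the others were low, with Cd68 at 2.91 to 4.40, Csf1r at 0.284 to 2.33, Lyz2 at 0.389 to 1.54 and Ptprc at 0.0938 to 0.292. Myogenic markers were mixed: Myog was at 121 and 84.1 CPM in Prdm16 libraries and at 31.0, 54.3 and 136 in WT libraries. Des was at 27.2 to 108 CPM, Itga7 at 14.2 to 35.0, Myod1 at 4.97 to 30.6 and Cdh15 at 5.25 to 21.5. Pax7 (0 to 1.07) and Myf5 (0.188 to 1.36) were very low. Of the pericyte and smooth muscle markers, Acta2 was at 72.1 to 371 and Rgs5 at 7.88 to 26.7. Myh11 (0 to 0.583) and Kcnj8 (0 to 0.281) were very low. The p-values in the authors' deposited table match the labels for 38 of 6237 genes (0.609%, within 1%), and match all 6237 when WT replicate 3 and Prdm16 replicate 2 are taken as the Prdm16 pair. So the labels of WT replicate 3 and Prdm16 replicate 1 are in doubt, and results below use the labels unless stated.

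No gene in the regions was called by the labels, with 2 libraries against 3. Of 15240 genes tested by edgeR's quasi-likelihood test with Benjamini-Hochberg adjustment, 0 had an adjusted p under 0.05 (percent called 0%), and 378 (2.48%) had an unadjusted p under 0.05. By DESeq2, 1 was called, not in the regions. Among the 44 genes of the regions that passed the filter, 1 had an unadjusted p under 0.05, the pseudogene Gm9347 (log2 fold change 2.15), and none of the 35 protein-coding genes did. Of these 35, 20 had a positive and 15 a negative log2 fold change, with a median of 0.15, against -0.01 over all autosomal protein-coding genes tested. That direction is not stable, since the median was -0.33 without both libraries in doubt. In bulk samples, fewer cells of a type and less RNA per cell cannot be told apart.

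The groups did not overlap for 14 of the 44 genes, against 17.8% of all genes tested (2710 of 15240), and for 8 of the 35 protein-coding genes (22.9%). Chosen after their values were seen, the 8 were Gtdc1, Snap25, Flrt3, Prkd1 and Khdrbs3, higher in both Prdm16 libraries, and Pcdh18, Etaa1 and Fbxl7, lower in both. None of the 8 had an unadjusted p under 0.05 by edgeR.

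Of the adhesion genes named, Cdh11 had the highest level of any protein-coding gene tested in the regions. Cdh11, the cadherin of mesenchymal cells, had 68.1% of its body in chr8:102681001-102801000, a gap between 2 WT domains. It was at 142 and 168 CPM in Prdm16 libraries, against 209, 217 and 115 CPM in WT libraries, and the groups overlapped (log2 fold change -0.22 ± 0.29 SE). Pcdh18, a protocadherin in chr3:49596001-50112000, was at 44.1 and 38.01 CPM in Prdm16 libraries, against 50.5, 50.2 and 57.1 CPM in WT libraries. The groups did not overlap (log2 fold change -0.36 ± 0.21 SE, adjusted p = 1.00 by edgeR with Benjamini-Hochberg adjustment). Flrt3, an adhesion protein of the FLRT family, was at 14.6 and 13.5 CPM in Prdm16 libraries, against 11.7, 10.6 and 10.3 CPM in WT libraries, again without overlap. Adgrl2, a latrophilin adhesion receptor, was at 42.1 and 43.9 CPM in Prdm16 libraries, against 49.9, 54.2 and 20.6 CPM in WT libraries, so the WT spread took in the Prdm16 values.

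Of 2 genes for matrix-linked proteins, both changed sign when a library was left out. Adamtsl1, a secreted ADAMTS-like glycoprotein, was at 7.35 and 29.8 CPM in Prdm16 libraries, against 9.43, 9.32 and 5.04 CPM in WT libraries. Its log2 fold change of 1.22 ± 0.58 SE rests on Prdm16 replicate 2, without which it was -0.093. Abi3bp, an extracellular matrix protein in chr16:56190001-56667000, was at 6.54 and 15.5 CPM in Prdm16 libraries, against 7.98, 12.9 and 3.92 CPM in WT libraries. Its log2 fold change of 0.41 ± 0.57 SE turned to -0.32 without Prdm16 replicate 2. It also moved with other libraries, to 0.071 without WT replicate 3, 0.87 without WT replicate 2 and 0.88 without Prdm16 replicate 1.

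The signalling genes overlapped between groups, except Prkd1. Prkd1, in chr12:50277001-50652000, was at 5.60 and 8.17 CPM in Prdm16 libraries, against 4.81, 4.59 and 3.92 CPM in WT libraries (log2 fold change 0.63 ± 0.39 SE). Epha3, an ephrin receptor, was at 7.24 and 9.95 CPM in Prdm16 libraries, against 3.85, 8.89 and 2.43 CPM in WT libraries. Its groups overlapped (log2 fold change 0.78 ± 0.56 SE). Pid1, an adaptor with a phosphotyrosine-interaction domain, was at 37.8 and 61.5 CPM in Prdm16 libraries, against 28.9, 48.9 and 35.4 CPM in WT libraries. Fgf10 was at 6.30 and 5.68 CPM in Prdm16 libraries, against 3.94, 9.17 and 1.68 CPM in WT libraries. Il15, a cytokine, was at 6.77 and 6.57 CPM in Prdm16 libraries, against 5.19, 6.88 and 3.64 CPM in WT libraries. The spread within WT was as wide as the difference for Pid1, Fgf10 and Il15.

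Among the regulators, Etaa1 (an activator of the ATR kinase) was at 2.68 and 4.09 CPM in Prdm16 libraries, against 6.45, 4.16 and 5.78 CPM in WT libraries. Fbxl7 was at 10.7 and 11.2 CPM in Prdm16 libraries, against 13.8, 15.1 and 11.2 CPM in WT libraries. For both, the highest Prdm16 value lay just under the lowest WT value. Ptbp2, in a gap region of 477 kb, was at 64.1 and 44.6 CPM in Prdm16 libraries, against 36.2, 71.5 and 69.2 CPM in WT libraries. Snap25 was low, at 1.63 and 2.31 CPM in Prdm16 libraries, against 1.15, 0.860 and 1.49 CPM in WT libraries. Its whole body lies in a stretch marked in all 3 Prdm16 libraries, and its counts were 14 and 13 in Prdm16 libraries and 12, 6 and 16 in WT libraries, too few for a firm value.

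Man1a, a Golgi mannosidase, was at 42.3 and 52.9 CPM in Prdm16 libraries, against 64.5, 29.96 and 31.4 CPM in WT libraries. Serpina3n, in an 18 kb region of Prdm16 replicates 1 and 2, was at 61.2 and 35.0 CPM in Prdm16 libraries, against 83.8, 39.3 and 7.46 CPM in WT libraries. Both overlapped between groups. Pard3b, Cxxc4 and Sugct stayed under 11 CPM in every library, and Hdgfl1 had a count of 0 in all 5.

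The Trim30 genes of the mouse, in chr7:104358001-104493000, split the libraries in a way that did not follow their labels. This region of 135 kb was marked in Prdm16 replicates 1 and 3, with low authors' domain scores of 11.7 and 13.4. It lies 1575 and 474 kb from the nearest WT domains. Trim30a was at 97.9 and 6.39 CPM in Prdm16 libraries, against 100.04, 137 and 7.65 CPM in WT libraries. Trim30d, a neighbour of the same family, had 60.7% of its body in the region. It was at 45.4 and 10.8 CPM in Prdm16 libraries, against 48.6, 67.5 and 7.37 CPM in WT libraries. Low levels stood in Prdm16 replicate 2 and WT replicate 3, which the authors' deposited p-values group together. In the authors' deposited table, Trim30a had a log2 fold change of -3.94 (adjusted p = 3.87e-36) and Trim30d of -2.51 (adjusted p = 4.87e-13).

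Across the regions, 16 genes had an adjusted p in the authors' deposited table and 3 were called, against 471 of 6237 (7.55%) over all genes. All 3 had a negative log2 fold change, as did 335 of the 450 autosomal genes called there. The authors' p-values follow the other grouping given above, not the labels. By the labels, edgeR's log2 fold changes were -0.63 ± 1.59 for Trim30a, -0.53 ± 1.10 for Trim30d and -0.15 ± 0.38 for B3galt1 (SE), each smaller than its error. The third gene called in the authors' deposited table was B3galt1, a galactosyltransferase, with a log2 fold change of -0.63 (adjusted p = 0.0973). It was at 25.1 and 16.9 CPM in Prdm16 libraries, against 25.4, 31.2 and 13.4 CPM in WT libraries. With WT replicate 3 and Prdm16 replicate 1 left out, the median log2 fold change of protein-coding genes in the regions was -0.33. That fit has 1 Prdm16 library, whose spread is assumed to equal that of WT, so no count of genes called is given.

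**Figure D5:**
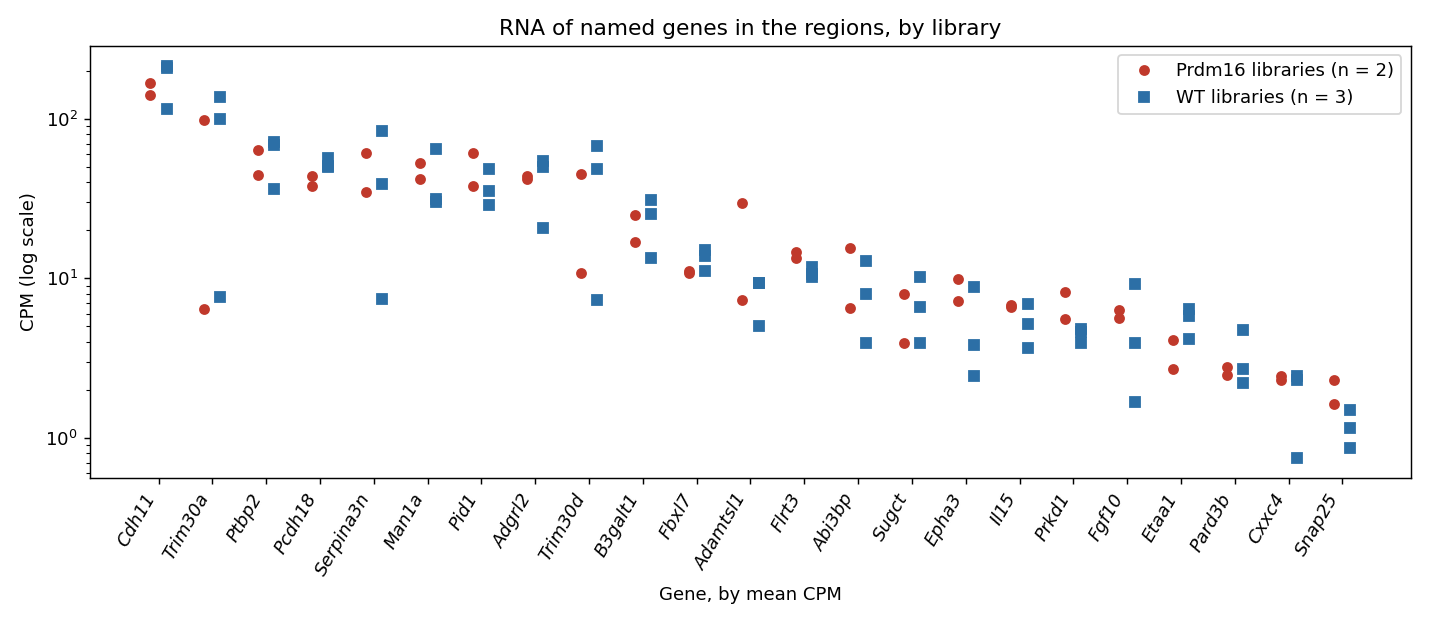
CPM (log axis) of the 23 named genes with RNA levels, ordered by mean CPM, with a red circle per Prdm16 library (n = 2) and a blue square per WT library (n = 3). Circles and squares overlap for most genes, and Trim30a and Trim30d each show 1 low Prdm16 library and 1 low WT library.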

How the data were processed

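The authors deposited, per the file headers and values, a table of raw counts (whole numbers) for 55341 genes in 5 RNA libraries, a comparison table with the authors' log2 fold change and p-value, and lists of domains with the authors' score per domain for each H3K9me2 and LaminB1 library. Domain boundaries are multiples of 3 kb (H3K9me2) and 4 kb (LaminB1). Per the submitters' processing notes, Bowtie 1.2.2, STAR 2.7, featureCounts and DESeq2 1.20 were used, with builds mm10, dm6 and GRCm38. The program that called the domains, and which role each build had, is not given in these sources. Of 21 samples, the 8 inputs were not used here.

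Domains were laid on 1 kb bins with Python 3.11.15, numpy 2.4.6 and pandas 2.3.3. Counts were tested by the labels with edgeR 4.0.16 in R 4.3.3 (trimmed mean of M-values, filterByExpr, robust quasi-likelihood, two-sided, Benjamini-Hochberg at 0.05), which was tested on simulated data. DESeq2 1.42.0 was an alternative. RefSeq genes were matched by symbol, and 264 of the 384 genes in the regions had a match. Of these, 116 had 0 counts in all 5 RNA libraries. Named regions were the 10 longest, the 5 longest in all 3 Prdm16 libraries and the 5 longest over 30 kb from WT domains. Named genes, with at least 0.5 of the body inside, were those in named regions (up to 3 each), up to 12 with the smallest unadjusted edgeR p, up to 8 with the highest CPM, up to 8 called by the authors, and those on the lists, leaving out predicted and unnamed symbols. The members, lists and rules were chosen with earlier results of these data known. CPM uses the scaled library size unless stated.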

Additional observations from a re-analysis of the deposited data

How the results depend on the processing

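The number of regions was 76 with all 3 Prdm16 libraries required and 206 when every library was trimmed to equal covered length, and it ranged from 127 to 533 with 1 library left out. Their length was 6.31 Mb with all 3 and 9.19 to 63.8 Mb with 1 left out. Without a Prdm16 library 2 were still needed, so the length could only fall, and without a WT library it could only rise. The LaminB1 share in the Prdm16 library was 0.198% with the lowest 0.25 of scores left out, 2.08% at equal length and 0.344% to 2.14% with 1 left out. In the WT library it was 1.65% with all 3, 0.298% without those scores, 5.16% at equal length and 1.09% to 5.26% with 1 left out. Protein-coding genes in the regions numbered 175 by any overlap and 5 with all 3, and 12 to 122 with 1 left out. Their share past the expression filter was 80.0% with all 3 and 40.7% to 60% with 1 left out. These gene counts with 1 left out and these shares were added after seeing the data.

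Genes called by edgeR over the whole table numbered 25 without the low-count filter, 0 to 4 with 1 library left out and 93 without both libraries in doubt, and DESeq2 called 1. Without both, 2 lay in the regions. With the replicate block, 1 gene was called. Deviations of same-numbered libraries correlated at 0.215 (replicate 1) and -0.227 (replicate 2). With 2 Prdm16 libraries the opposite signs follow from centring, so this cannot show whether the numbers pair the libraries, and the labels do not say. The median log2 fold change in the regions ranged from -0.17 (without WT replicate 3) to 0.14 with 1 left out, and was -0.13 without Prdm16 replicate 1, -0.33 without both in doubt and -0.26 with the replicate block. With 1 left out, Adamtsl1 ranged from -0.093 to 1.89 and Abi3bp from -0.32 to 0.88, the lowest of each without Prdm16 replicate 2, and Abi3bp turned to -0.0096 with the replicate block. Of 120 fold changes of 12 genes under the alternatives, 117 kept their direction. These 12 were picked for the smallest unadjusted edgeR p, and the alternatives reuse the same libraries, so this is no independent check. Causes were not tested. Depth of the domain libraries is unknown.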
